A study of Schizosaccharomyces pombe with 6 samples.

Results

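The thioredoxin, peroxiredoxin and glutathione transferase genes described here are 10 fission yeast genes, chosen by name: pap1 (SPAC1783.07c), tpx1 (SPCC576.03c), srx1 (SPBC106.02c), trx1 (SPAC7D4.07c), trx2 (SPBC12D12.07c), trr1 (SPBC3F6.03), sod1 (SPAC821.10c), gst1 (SPCC191.09c), gst2 (SPCC965.07c) and gst3 (SPAC688.04c). All 10 were found among the 7016 features of the deposited table, and all 10 were among the 6166 tested. The name of the set is wider than its content, since it holds no gene of glutathione synthesis or reduction, and it includes a transcription factor (pap1) and a superoxide dismutase (sod1). RNA came from asynchronous, exponentially growing Schizosaccharomyces pombe in rich YES medium at 30 °C, in 3 libraries from cultures given 1 µM beta-estradiol in ethanol for 3 h and 3 libraries from cultures given the ethanol vehicle. Both groups share the medium, the vehicle and the growth phase, while strain, genotype, activator and reporter are not given in the labels used here. The study built a hormone-controlled promoter, per its title, and the comparison asks which RNA levels differ once the hormone is added. Libraries are named by the number, 0 to 2, that the table gives them within each group.

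Hydrogen peroxide in fission yeast is removed largely by Tpx1, a peroxiredoxin whose active cysteine is oxidised by peroxide and then reduced again by thioredoxin, which is itself reduced by thioredoxin reductase at the expense of NADPH. Sulfiredoxin rescues peroxiredoxin that has been oxidised too far to be reduced by thioredoxin. Oxidised Tpx1 also passes the signal to Pap1, an AP-1-like transcription factor that then stays in the nucleus and raises genes of peroxide removal and drug resistance. Glutathione S-transferases join glutathione to reactive compounds, and superoxide dismutase turns superoxide into peroxide.

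The green fluorescent protein entry, taken here as the check of induction, lay between 131 and 161 FPKM in the controls and between 553 and 814 FPKM with estradiol. FPKM is a level scaled by gene length and by the size of the library, so levels of different genes can be set side by side. The spacing of low values gave a relative depth of 0.687 for the shallowest library (estradiol 0) and 1.3 for the deepest (control 1), with control 0 set to 1; the absolute depth is unknown. Of 4 genes listed for growing cells, hht1 and hta1 were called lower, beside 3.91% of all tested genes (cdc22 too with the library number as a block, limma adjusted p = 0.0286). cdc18 had a mean of 21.1 FPKM in the controls and 20.7 FPKM with estradiol, a log2 change of -0.03. The summed level of the 4 was 1724 to 1830 FPKM in the controls and 1285 to 1420 FPKM with estradiol. Most of this sum came from hht1 and hta1, with control means of 935 and 531 FPKM. Of 6 genes listed for starved or meiotic cells, mei4, isp3 and fbp1 were called higher, beside 4.07% of all tested genes. The summed level of the 6 was 53.3 to 70.3 FPKM in the controls and 102 to 122 FPKM with estradiol. None of the 6 was at 0 in any library. ste11 of the latter list had a mean of 16.6 FPKM in the controls and 14.4 FPKM with estradiol. The largest gain was that of isp3, from 12 to 41.3 FPKM, followed by fbp1, from 14.6 to 28.0 FPKM. Of these 5 calls only that of isp3 held whichever single library was left out. Those of hht1, hta1 and mei4 were also lost after quantile normalization, at log2 changes of -0.22, -0.17 and 0.58 (limma adjusted p = 0.117, 0.174 and 0.0654), and after correction for a trend with level. The part of these shifts in the results below was not tested.

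None of the 10 genes passed the test between the groups, and tpx1 and gst2 had the smallest p. tpx1 averaged 0.753 of its control level, with all 3 estradiol libraries below every control, and gst2 was 2.82-fold higher in the fit with a very wide spread. The other 8 had log2 changes between -0.17 and 0.47. After quantile normalization the log2 change of tpx1 went from -0.41 to -0.09. Total FPKM was lower in each estradiol library (767792 to 798655) than in any control (831139 to 876214). The part of this in the fall of tpx1 was not tested. Calls were made where limma's adjusted p was under 0.05 (Benjamini-Hochberg over all 6166 genes). Log2 changes were taken of FPKM + 1, so those of weakly expressed genes are understated. limma called 0 of the 10, beside 7.98% of all tested genes, of which 4.07% were higher and 3.91% lower. At an unadjusted p under 0.05 there were 2 of 10 (tpx1 and gst2), beside 25.9% of all genes. The groups did not overlap for 2 of 10 (tpx1 and pap1), beside 31.2% of all genes. Positive changes were found for 6 of the 10 and negative ones for 4, and their median was 0.08, beside 0.02 over all tested genes. With the library number as a block, limma called 2 of the 10, tpx1 lower and gst2 higher, beside 16.7% of all genes. In a bulk sample, a lower share of cells that express a gene and less of its RNA per cell cannot be told apart.

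**Figure D1:**
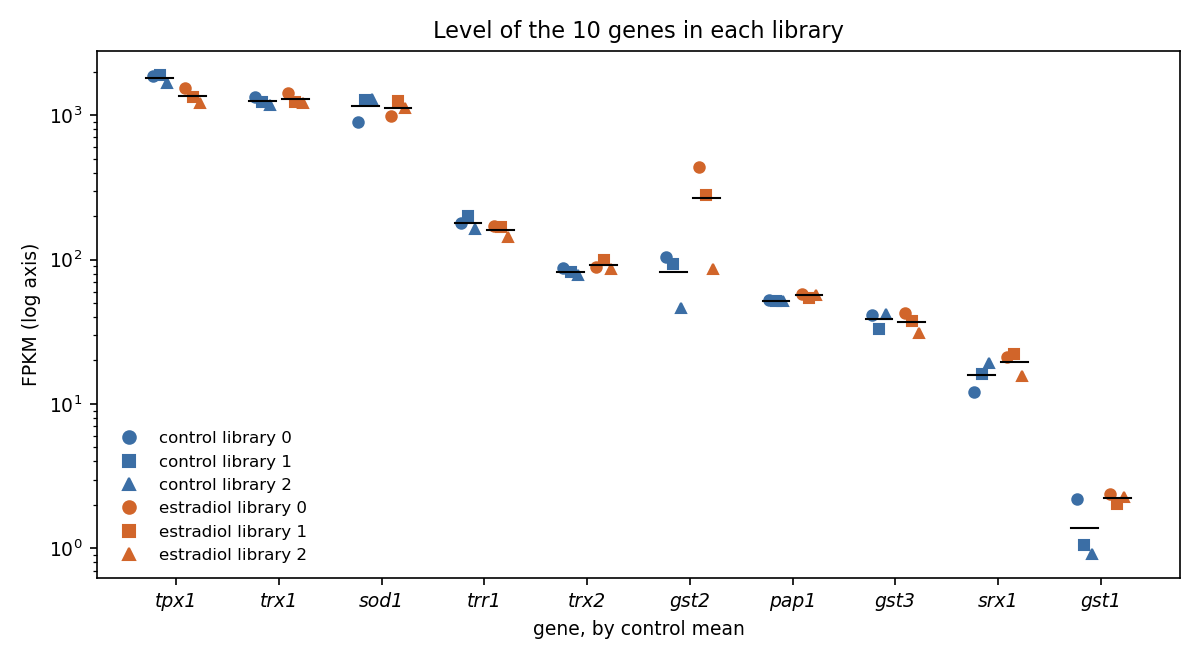
FPKM of each of the 10 genes (log axis) in the 3 control libraries (blue) and the 3 estradiol libraries (orange), with symbols for libraries 0, 1 and 2 and a black line at each group's mean. The genes fall into a high group (tpx1, trx1, sod1), a middle group and gst1 near 1 to 2 FPKM, and gst2 has the widest spread within its groups.

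The levels ran from near 1 FPKM for gst1 to 1807 FPKM for tpx1 in the control means. In the controls the order of mean levels was tpx1, trx1, sod1, trr1, trx2, gst2, pap1, gst3, srx1 and gst1. tpx1 ranked 106th, trx1 158th and sod1 167th of the 7016 features. Control values of tpx1 lay above those of trx1 without overlap, but with estradiol the ranges of these neighbours overlapped. trx1 and sod1 could not be ordered beyond their spread in either group. sod1 was 6.42 times trr1 and trr1 was 2.18 times trx2, with no overlap in either group. trx2 and gst2 had control means of 82.6 and 81.6 FPKM and overlapped, and gst2 overlapped pap1 in the controls. From pap1 down to gst3, srx1 and gst1 no neighbouring ranges overlapped in either group. The cytosolic thioredoxin gene thus stood far above the mitochondrial one, with trx2 at 0.0661 ± 0.0015 of trx1 in the controls and 0.0715 ± 0.0092 with estradiol (SD, n = 3 each).

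pap1 encodes the transcription factor itself. It stood at 52.4, 51.6 and 51.7 FPKM in control libraries 0, 1 and 2 and at 58.0, 54.3 and 57.1 FPKM in estradiol libraries 0, 1 and 2. Every estradiol library lay above every control, by a small margin. The mean went from 51.9 ± 0.48 to 56.4 ± 1.91 FPKM (SD, n = 3), a log2 change of 0.12 with a 95% interval of -0.01 to 0.25 and a limma adjusted p of 0.238. pap1 had the tightest replicates of the set: only 2.58% of genes with a mean of at least 10 FPKM had a smaller spread within groups. Across the 6 libraries its nearest gene outside the set was smd1, of the spliceosomal Sm core, with a root mean square difference of 0.015 between centred log2 values. This distance is not scaled by spread, so genes that vary little lie near each other whatever their pattern. The 6th nearest gene, myo51, was at 0.022.

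tpx1, the peroxiredoxin gene, was the most abundant member. It stood at 1864, 1903 and 1654 FPKM in control libraries 0, 1 and 2 and at 1543, 1334 and 1215 FPKM in estradiol libraries 0, 1 and 2. All 3 estradiol values were below the lowest control. The mean went from 1807 ± 134 to 1364 ± 166 FPKM (SD, n = 3). The log2 change of -0.41 (SE 0.11) had a 95% interval of -0.67 to -0.15 and a limma adjusted p of 0.0668. An exact permutation test gave 0.1, which no comparison of 3 with 3 libraries can go below. With the library number as a block its SE was 0.07 and limma's adjusted p was 0.0183. Within the pairs of equal number the differences were -0.27, -0.51 and -0.44. Leaving out estradiol library 0 gave -0.50 and a limma adjusted p of 0.041. Quantile normalization, which forces all libraries to one distribution, gave -0.09 (limma adjusted p = 0.526), and correction for a trend with level gave -0.11 (0.455).

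A ratio of genes within a library does not depend on how libraries are scaled as a whole. The ratio of tpx1 to trx1 was 1.39, 1.56 and 1.4 in the controls and 1.09, 1.09 and 1.01 with estradiol, so all 3 estradiol libraries were below every control. The ratio of tpx1 to trr1 was 10.5, 9.57 and 10.1 in the controls and 9.06, 7.96 and 8.50 with estradiol, also without overlap. Against sod1 the ratio overlapped between the groups, at 1.61 ± 0.41 and 1.24 ± 0.28 (SD, n = 3). The ratio of srx1 to tpx1, multiplied by 10 to the power 3, was 6.44, 8.52 and 11.5 in the controls and 13.7, 16.7 and 12.8 with estradiol, again without overlap. These are 3 of 8 ratios whose groups did not overlap, each with an exact permutation p of 0.1 and 0.267 after Benjamini-Hochberg adjustment over the 8. Among single genes, the groups did not overlap for 31.2% of all those tested. All 3 ratios hold tpx1, whose own groups did not overlap, so they are not 3 separate observations. The pairs were picked after the values of single genes were seen.

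tpx1 lies on chromosome III, 2084942 to 2085719 on the minus strand of the ASM294v3 assembly, in 1 exon. Of the lncRNAs (long non-coding RNAs) that overlap its ends on the same strand, SPNCRNA.1258 was between 1.73 and 4.12 FPKM and SPNCRNA.1259 between 0 and 0.459 FPKM, far below tpx1. A lncRNA that begins 142 bases beyond its start and is read the other way, SPNCRNA.1260, went from 0.901 ± 0.388 to 3.28 ± 0.611 FPKM (SD, n = 3) and was called higher, with a log2 change of 1.18 and a limma adjusted p of 0.0427. It was singled out after its values were seen, and its call was lost whichever library was left out (adjusted p from 0.0727 to 0.109), after quantile normalization (0.139), after correction for level (0.0963) and with a pseudocount of 0.1 (0.0557). The gene nearest to tpx1 over the 6 libraries was met26, which encodes methionine synthase, with a root mean square difference of 0.032. met26 stood at 1723, 1681 and 1478 FPKM in the controls, against 1442, 1209 and 1140 FPKM with estradiol (log2 change -0.37, limma adjusted p = 0.0933, and 0.0208 with the block).

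srx1 encodes sulfiredoxin, which restores overoxidised peroxiredoxin. It stood at 12, 16.2 and 19.1 FPKM in control libraries 0, 1 and 2 and at 21.2, 22.3 and 15.5 FPKM in estradiol libraries 0, 1 and 2. Libraries 0 and 1 were higher with estradiol and library 2 was lower, so the groups overlapped. The log2 change was 0.31 with a 95% interval of -0.16 to 0.77 (limma adjusted p = 0.376). An antisense lncRNA of the reference, SPNCRNA.4691, covers 91.1% of srx1, is not a row of the table, and could not be separated from it in libraries that do not mark strand. SPNCRNA.1350 overlaps srx1 by 37 bases on the same strand and had 1.86 ± 0.301 FPKM in the controls and 4.37 ± 1.03 FPKM with estradiol (SD, n = 3), without overlap of the groups (log2 change 0.89, limma adjusted p = 0.0563). The kinase gene mph1 overlaps srx1 by 40 bases on the other strand and was not called (log2 change 0.15, limma adjusted p = 0.40).

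Neither thioredoxin gene nor the reductase gene was called. trx1, the cytosolic thioredoxin gene, stood at 1344, 1223 and 1183 FPKM in the controls, against 1418, 1228 and 1203 FPKM with estradiol. Its values interleaved, and the log2 change was 0.04 with a 95% interval of -0.18 to 0.25 (limma adjusted p = 0.851). It moved to 0.32 after quantile normalization (limma adjusted p = 0.0568) and after correction for level, where limma called it higher (adjusted p = 0.046).

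trx2, for the mitochondrial thioredoxin, stood at 86.7, 82.6 and 78.5 FPKM in the controls, against 88.6, 99.4 and 85.6 FPKM with estradiol. The groups overlapped by 1 library on each side, with a log2 change of 0.14 and an interval of -0.04 to 0.32 (limma adjusted p = 0.304). trr1, for thioredoxin reductase, stood at 178, 199 and 164 FPKM in the controls, against 170, 167 and 143 FPKM with estradiol. Each of its libraries was lower than the control of the same number, but the groups overlapped, with a log2 change of -0.17 and an interval of -0.40 to 0.07 (limma adjusted p = 0.337). SPNCRNA.1678, antisense to 58.5% of trr1, was at most 2.58 FPKM in any library. The protein-coding neighbour srb11 is antisense to 25.1% of trx2, at 21.2 ± 0.512 FPKM in the controls and 23.9 ± 2.39 FPKM with estradiol (SD, n = 3), and SPAC7D4.08 overlaps trx1 by 20 bases. Neither was called. SPNCRNA.5597 on trx2, and SPNCRNA.2981 and SPNCRNA.2982 on pap1, are antisense lncRNAs not analysed here.

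sod1 encodes the copper and zinc superoxide dismutase. It stood at 901, 1274 and 1294 FPKM in control libraries 0, 1 and 2 and at 988, 1242 and 1121 FPKM in estradiol libraries 0, 1 and 2. Library 0 was the lowest in both groups, and the groups overlapped throughout. The log2 change was -0.04 with a 95% interval of -0.42 to 0.34 (limma adjusted p = 0.919), and its sign turned under quantile normalization (0.26) and correction for level (0.24), with neither called. sod1 was the one member that overlapped no other annotated gene.

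**Figure D2:**
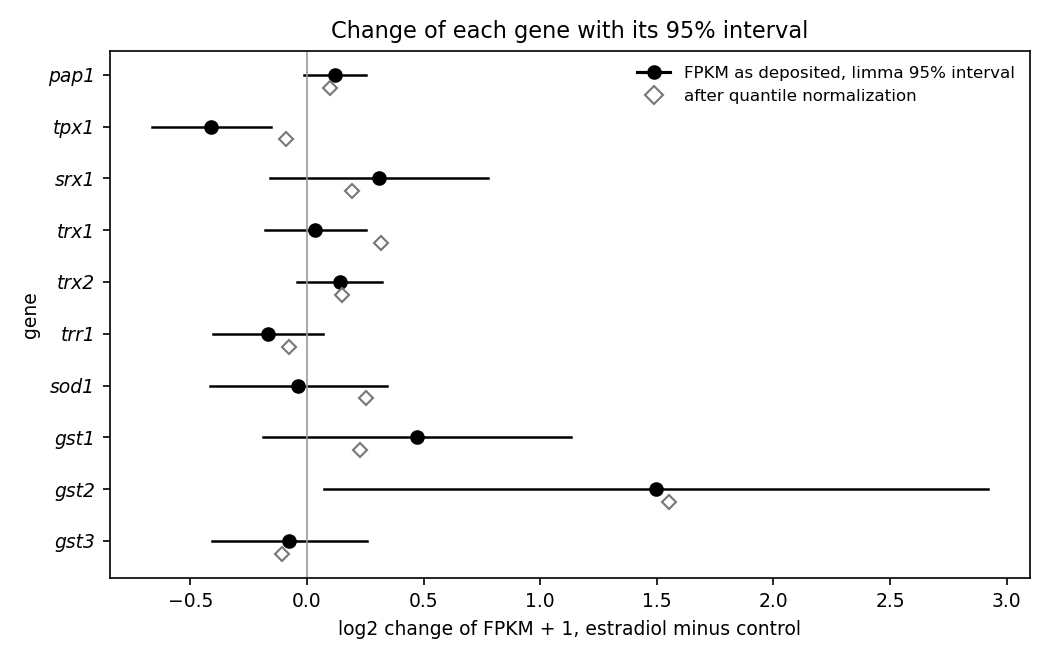
Log2 change of FPKM + 1, estradiol minus control, for each of the 10 genes; black points and lines are limma's estimate and its unadjusted 95% interval, and open diamonds the change after quantile normalization. tpx1 (-0.41) and gst2 (1.5) have intervals that exclude 0, and the diamonds move the abundant genes tpx1, trx1 and sod1 upward by about 0.3.

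The 3 glutathione transferase genes were far apart in level and were not called. gst3 stood at 41.3, 33.2 and 41.8 FPKM in the controls, against 42.5, 37.3 and 30.8 FPKM with estradiol. Its groups overlapped, with a log2 change of -0.08 and an interval of -0.41 to 0.26 (limma adjusted p = 0.788). slx4, which overlaps gst3 by 17 bases on the same strand, was at most 0.548 FPKM.

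gst1 was barely detected, at 2.19, 1.05 and 0.917 FPKM in the controls, against 2.39, 2.02 and 2.27 FPKM with estradiol. Control library 0 lay among the estradiol values. The log2 change was 0.47 with an interval of -0.19 to 1.13 (limma adjusted p = 0.337), and it depended on the pseudocount, at 0.74 for 0.1 and 0.18 for 5. SPNCRNA.1222 is antisense to 51.6% of gst1 and went from 5.26 ± 0.313 to 9.67 ± 1.63 FPKM (SD, n = 3), a called rise of 0.76 (limma adjusted p = 0.0271). That call was lost after quantile normalization (adjusted p = 0.0999), after correction for level (0.0739) and without any one library other than estradiol 0 (highest adjusted p = 0.0877). Reads from this stretch cannot be given to one strand, so the level of gst1 is uncertain.

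gst2 had the largest difference of the set and the widest spread. It stood at 105, 93.9 and 46.2 FPKM in control libraries 0, 1 and 2 and at 434, 278 and 86.6 FPKM in estradiol libraries 0, 1 and 2. Each estradiol library was above the control of the same number, but estradiol library 2 lay below control libraries 0 and 1. The mean went from 81.6 ± 31.1 to 266 ± 174 FPKM (SD, n = 3). The log2 change of 1.5 (SE 0.60) had a 95% interval of 0.07 to 2.92 and a limma adjusted p of 0.173, and an exact permutation test gave 0.3. Within groups, gst2 varied more than 99.2% of genes with a mean of at least 10 FPKM. Within the pairs of equal number it differed by 2.04, 1.56 and 0.89, and with the number as a block limma called it higher (SE 0.20, adjusted p = 0.01). Leaving out single libraries gave log2 changes between 1.00 (without estradiol library 0) and 2.16 (without estradiol library 2), and limma called none of them, with adjusted p from 0.0518 to 0.379.

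The members with a related copy were compared in sequence, since reads of near-identical genes can be split between them. The coding sequences of gst1 and gst2 were 77.2% identical over 688 aligned bases, and their longest identical run was 19 bases. gst3 was 65.6% identical to gst1 and 64.9% to gst2, and trx1 and trx2 were 65.9% identical. No stretch of 50 bases in the transcript of any of the 10 genes occurred elsewhere in the assembly. gst2 lies on chromosome III, 2294617 to 2296105 on the minus strand, in 1 exon. The reference has an antisense lncRNA over its whole length, SPNCRNA.7703, which is not a row of the table, so the values of gst2 may hold reads of both strands.

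The gene nearest to gst2 over the 6 libraries, of 5033 compared, was SPCC18B5.02c, a pseudogene of the reference, with a root mean square difference of 0.12. Its values were 30.2, 23.6 and 12 FPKM in control libraries 0, 1 and 2 and 102, 83.3 and 24.7 FPKM in estradiol libraries 0, 1 and 2. As in gst2, library 0 was the highest and library 2 the lowest of each group. Its log2 change was 1.49 with an SE of 0.56 (limma adjusted p = 0.153, and 0.0065 with the block). It lies 2432 bases from bfr1, the ABC transporter gene for resistance to brefeldin A and other drugs and a known target of Pap1, with no protein-coding gene between them.

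The windows before the starts of gst2 and SPCC18B5.02c are shown because no other gene lay nearer to gst2 over the libraries. They run from 250 bases before to 50 bases after each start as annotated by RefSeq on ASM294v3, written on the gene's own strand. Capitals mark AP-1-like letters (TTAGTAA or TTAGTCA on either strand) and the longest run the windows share. The gst2 window is chrIII:2296056-2296355 and that of SPCC18B5.02c is chrIII:718820-719119, both on the minus strand.
gst2: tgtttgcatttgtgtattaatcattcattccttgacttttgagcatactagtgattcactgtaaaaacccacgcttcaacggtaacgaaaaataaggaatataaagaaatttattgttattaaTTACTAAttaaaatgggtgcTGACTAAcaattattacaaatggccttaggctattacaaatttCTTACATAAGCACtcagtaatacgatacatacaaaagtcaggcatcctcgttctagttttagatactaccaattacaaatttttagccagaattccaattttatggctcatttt
SPCC18B5.02c: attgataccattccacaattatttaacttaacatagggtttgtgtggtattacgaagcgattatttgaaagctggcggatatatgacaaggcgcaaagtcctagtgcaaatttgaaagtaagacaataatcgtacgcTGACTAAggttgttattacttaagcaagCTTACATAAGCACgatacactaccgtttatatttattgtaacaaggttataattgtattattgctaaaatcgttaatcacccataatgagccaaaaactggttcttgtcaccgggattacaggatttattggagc

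Both windows hold TTAGTCA, 107 bases before the start of gst2 and 113 before that of SPCC18B5.02c, each inside a shared run of 9 bases. The longest shared run, of 13 bases, begins 64 and 85 bases before the starts. Of 5123 windows of protein-coding genes, that of gst2 was the 1 that held this run. The window of SPCC18B5.02c, a pseudogene, was not among the 5123. A run of 13 bases copied from 1 window is rarely met in another by its length alone, so the count cannot show that it is particular to gst2. The search for shared runs and for TTAGTCA was made after the values were seen.

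Among the 10 genes, TTAGTCA was in the windows of tpx1 and gst2, beside 4.53% of all windows. TTAGTAA was in those of srx1, trx2, gst1 and gst2, beside 12% of all windows. TTACGTAA, the best known Pap1 site, TGACTCA and TGACGTCA were in none of the 10, beside 0.468%, 2.30% and 0.273% of all windows. Motifs were searched on both strands. A match in these letters is a description and does not show that a factor binds there.

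**Figure D3:**
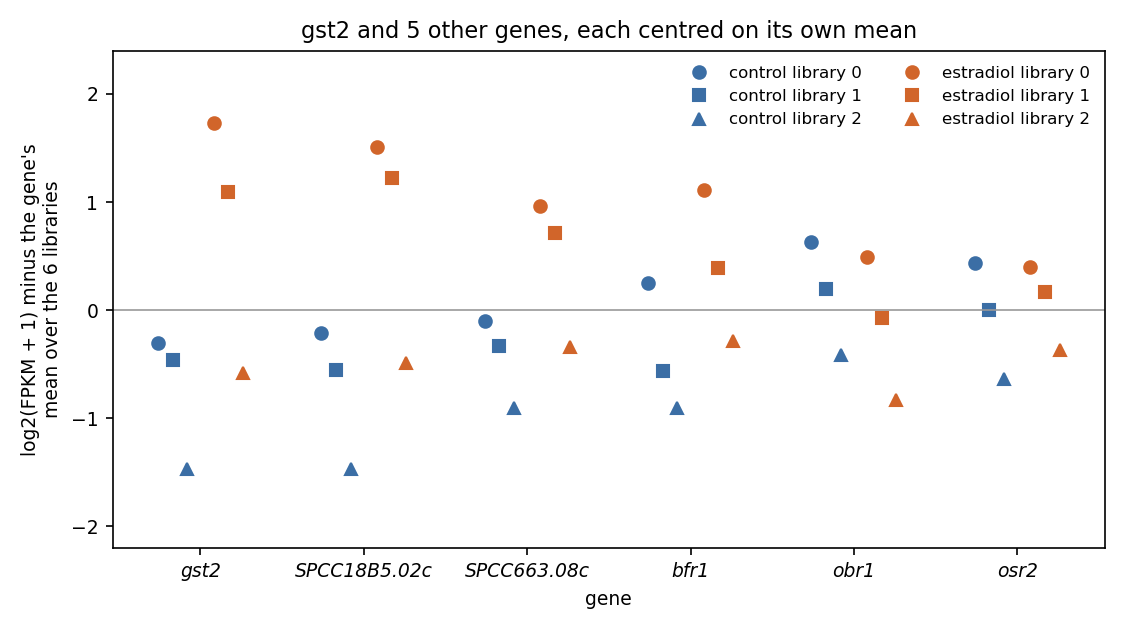
Log2(FPKM + 1) of gst2 and 5 other genes in each library, minus the gene's mean over the 6 libraries; blue is control, orange estradiol, and circles, squares and triangles are libraries 0, 1 and 2. In every gene shown the circle is the highest and the triangle the lowest of its group, and the estradiol points of gst2, SPCC18B5.02c, SPCC663.08c and bfr1 lie above the control of the same number while those of obr1 lie below it.

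Genes known as targets of Pap1 outside the set were listed by textbook knowledge, 7 in all. limma called 1 of them lower (ctt1) and none higher, beside 7.98% of all tested genes called in either direction. At an unadjusted p under 0.05 there were 3, beside 25.9% of all genes. The median log2 change of the 7 was 0.03. The transporter genes caf5 and pmd1 had log2 changes of 0.03 and 0.02 (limma adjusted p = 0.944 and 0.929). With the block, 2 were called higher and 2 lower, beside 16.7% of all genes. osr1, a dehydrogenase gene, had 0.48 (limma adjusted p = 0.0783). SPCC663.08c, a dehydrogenase-like gene, was the second nearest to gst2, at 20.9, 17.7 and 11.5 FPKM in the controls and 44.7, 37.5 and 17.5 FPKM with estradiol. Its log2 change was 0.89 (limma adjusted p = 0.18, and 0.0101 with the block). bfr1 had 163, 91.9 and 72.1 FPKM in the controls against 296, 179 and 112 FPKM with estradiol. The change of bfr1 was 0.81 (limma adjusted p = 0.268, and 0.00391 with the block). obr1, for a flavodoxin-like protein, had the same order of libraries but was lower with estradiol at each number, from 765, 567 and 370 FPKM to 697, 471 and 277 FPKM, a log2 change of -0.27 (limma adjusted p = 0.702, and 0.0436 with the block). osr2, which ends 42 bases from the end of gst2, measured 42.4, 31.1 and 19.6 FPKM in the controls, against 41.5, 35.2 and 23.9 FPKM with estradiol, and was not called with or without the block. osr2 is not among the 7 listed, and bfr1, obr1 and osr2 were picked for mention after their values were seen. What libraries of the same number share is not given in the labels, and its part in these values was not tested.

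The genes around the set were described from 6 lists of 48 genes in all. limma called 1 higher and 3 lower, 8.33% of the 48, beside 7.98% of all tested genes. With the block 5 were called higher and 6 lower, 11 of 48 beside 16.7% of all genes. Their median log2 change was 0.01.

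Of 12 genes of glutathione synthesis, reduction and use limma called none, beside 7.98% of all tested genes. At an unadjusted p under 0.05 there was 1, beside 25.9% of all genes. That was grx4, for a glutaredoxin of iron regulation, at 160 ± 22 FPKM in the controls and 118 ± 15.1 FPKM with estradiol (SD, n = 3; log2 change -0.44, limma adjusted p = 0.0903, and 0.00578 with the block). The glutamate-cysteine ligase gene gcs1 and the glutathione reductase gene pgr1 had 0.17 and 0.14 (limma adjusted p = 0.298 and 0.328). The median of the list was 0.03.

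Of 8 other genes of peroxide and superoxide removal, ctt1 was called lower, beside 3.91% of all tested genes, and 7 were not called. ctt1, the catalase gene, fell from 42.8 ± 3.14 to 30.2 ± 2.81 FPKM (SD, n = 3; log2 change -0.49, limma adjusted p = 0.0271), and leaving out any library but estradiol library 0 ended the call (highest adjusted p = 0.0938). The call of ctt1 held after quantile normalization and correction for level (limma adjusted p = 0.0357 and 0.0338). It was lost without the filter on low values (0.0554). pmp20, for a peroxiredoxin-type protein, had -0.32 (limma adjusted p = 0.128), and mxr1, for methionine sulfoxide reductase, 0.32 (0.0957, and 0.0481 with the block).

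Of 6 genes for transport and cofactors of Pap1, hba1 was called higher, beside 4.07% of all tested genes, and 5 were not called. hba1, whose product acts in export of Pap1 from the nucleus, rose from 32.9 ± 1.10 to 45.3 ± 2.32 FPKM (SD, n = 3; log2 change 0.45, limma adjusted p = 0.0151). The call was lost without control library 0 or 1 or estradiol library 1 or 2 (highest adjusted p = 0.0686). It held after quantile normalization and correction for level (limma adjusted p = 0.0245 and 0.0225). The exporter gene crm1 had -0.09 and the cofactor gene oxs1 0.22 (limma adjusted p = 0.344 and 0.146, the latter 0.0328 with the block).

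Of 11 genes that carry the peroxide signal to the kinase Sty1 and its factors, pcr1 was called lower, beside 3.91% of all tested genes. The other 10 were not called. pcr1, the partner of Atf1, fell from 33.2 ± 1.83 to 24.8 ± 0.728 FPKM (SD, n = 3; log2 change -0.41, limma adjusted p = 0.0208). The call was kept when estradiol library 0 was left out and lost without each of the others (highest limma adjusted p = 0.0869). It held after quantile normalization and correction for level (limma adjusted p = 0.0195 and 0.022). The peroxide sensor kinase gene mak3 and atf1 had -0.16 and -0.22 (limma adjusted p = 0.148 and 0.206).

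Of 5 genes that supply NADPH, on which thioredoxin reductase draws, gnd1 was called lower, beside 3.91% of all tested genes. The other 4 were not called. gnd1, for 6-phosphogluconate dehydrogenase, fell from 978 ± 77.1 to 648 ± 86.8 FPKM (SD, n = 3; log2 change -0.60, limma adjusted p = 0.0271). It was not called after quantile normalization (-0.36, adjusted p = 0.066) or correction for level (-0.35, 0.0745). The call was also lost without control library 0 or 1 or estradiol library 1 or 2 (highest adjusted p = 0.103). tal1, for transaldolase, had -0.23 (limma adjusted p = 0.0545, and 0.0354 with the block), and pos5 -0.08 (0.541).

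**Figure D4:**
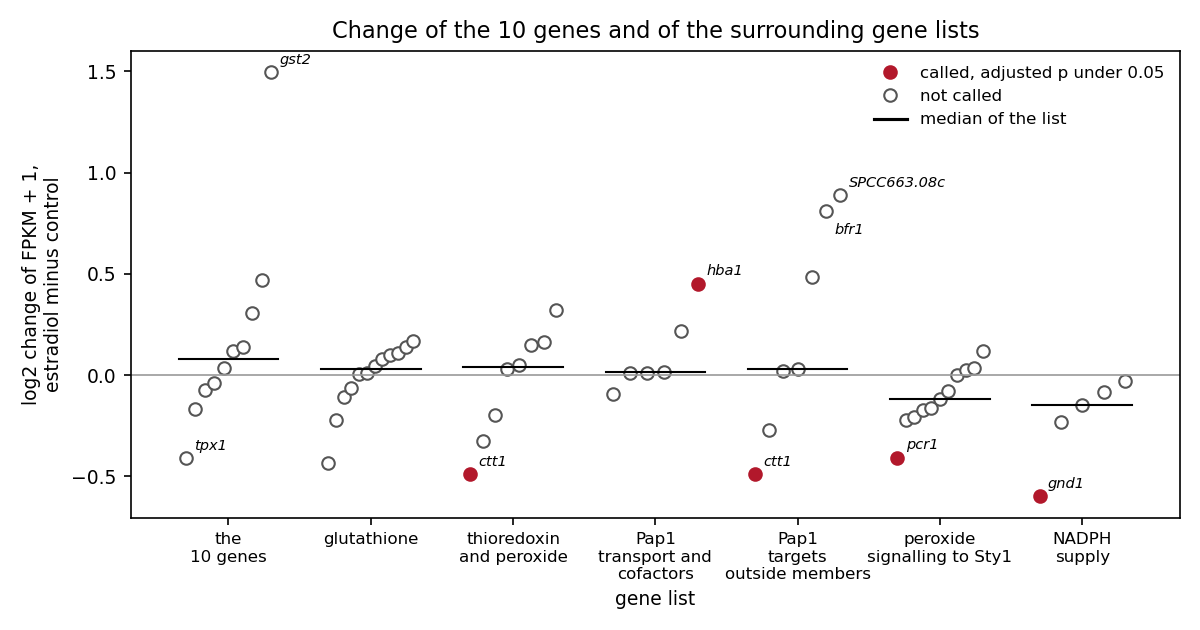
Log2 change of FPKM + 1, estradiol minus control, for the 10 genes and for each of the 6 surrounding lists; each circle is a gene, filled where limma's adjusted p is under 0.05, and black lines are list medians. The medians lie between -0.15 and 0.08, the filled circles are hba1, ctt1 (in 2 lists), pcr1 and gnd1, and none of the 10 genes is filled.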

How the data were processed

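RNA-seq libraries from 3 control and 3 estradiol cultures were compared; ribosomal RNA was removed and the kit does not mark strand, per the labels' protocols. The authors deposited FPKM values, 1 per gene and library, with no counts, so depth is relative only and no counting interval is given. The tools were CASAVA 1.4, TopHat2 and Cuffdiff, per the submitters' processing notes, which assign them no step. Build, annotation and scaling: not given in the sources used here. Columns were put in groups by the condition number in the sample titles. Their own numbers could not be tied to labels. Deviations from group means correlated at 0.152, 0.212 and 0.146 between libraries of equal number, and at -0.149 to -0.011 between those of unequal number. Deviations cancel within each group, so the values at equal and unequal numbers are not independent. That is why the block is printed where it changes a call, and this reason comes from the same data as the calls.

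Genes with a mean of at least 1 FPKM entered limma 3.58.1 under R 4.3.3, as log2(FPKM + 1) and with the trend of variance over level; tests were 2-sided, and the procedure was checked on simulated data. P-values measure only the spread between these cultures. The members, lists and tests were chosen with earlier results of these data known. Named beside the 10 members were called genes and the 3 smallest p of each surrounding list, genes that overlap a member, and the nearest gene of the 3 members with the smallest p. Some marker genes of growing and starved cells, and every listed Pap1 target, were named as well. Gene names, positions and sequence came from RefSeq on ASM294v3, to which 6845 table identifiers matched and 171 did not. Python 3.11.15, pandas 2.3.3 and Biopython 1.88 did the rest. The pseudocount, the low-value filter, the scaling, the variance trend and the block were each varied, and each library was left out in turn.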

Additional observations from a re-analysis of the deposited data

How the results depend on the processing

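Over all genes, limma called 251 higher and 241 lower, against 506 and 524 with the library number as a block. Quantile normalization gave 144 and 108, and correction for level gave 106 lower. Leaving out single libraries gave 42 to 242 higher and 32 to 206 lower. Of the 10 genes, the block called 1 higher (gst2) and 1 lower (tpx1), correction for level called 1 higher (trx1), and leaving out a library called 0 higher and 0 to 1 lower (tpx1, without estradiol library 0). The surrounding genes gave 5 higher and 6 lower with the block, and 0 to 1 higher and 0 to 3 lower when a library was left out. The sign turned for sod1 after quantile normalization (0.26) and correction for level (0.24), and for tal1 after correction for level (0.0073). It also turned in some fits without a library for trx1 (-0.038 to 0.089), sod1 (-0.21 to 0.054), gst3 (-0.18 to 0.044), obr1 (-0.59 to 0.076) and osr2 (-0.15 to 0.39). The cause was not tested. With a minimum mean of 10 FPKM gst1 was not tested. No other call of the 10 genes changed under any setting. Depth may limit the changes of a low gene such as gst1, but the absolute depth is unknown and this was not tested.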

Other observations

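The order of libraries seen in gst2 was shared by other genes. Of 5042 genes with a mean of at least 10 FPKM, 390 (7.74%) had library 0 above library 1 and library 1 above library 2 in both groups. In 28 of them (0.555%), library 0 was also at least 1.5 times library 2 in both groups. gst2 was the 1 member of the set among these 28, which also held SPCC18B5.02c, SPCC663.08c, bfr1, obr1 and osr2. They further held the uracil-responsive genes urg1, urg2 and urg3. urg1 stood at 361, 176 and 64.7 FPKM in control libraries 0, 1 and 2 and at 168, 43.2 and 19.2 FPKM in estradiol libraries 0, 1 and 2, lower with estradiol at each number (log2 change -1.60, limma adjusted p = 0.306, and 0.00531 with the block). The minimum of 1.5 and the order were set after the values were seen, so the count is a description with no test.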
